A study of Rattus norvegicus with 9 samples.

Results

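A set of 10 genes of natural killer cells and cytotoxic lymphocytes was followed in the livers of young and old male rats. The members were chosen by name, as the rows of the deposited count table named CCL5, GZMM, GZMK, NKG7, PRF1, KLRD1, IL2RB, NCR1, TBX21 and EOMES, written below in the usual rat spelling (Ccl5 and so on). All 10 were found among 23479 gene symbols, and together they held 3743 reads in 9 libraries. The animals were male Wistar rats, an outbred strain, with 5 livers at 6 months of age (young 1 to 5) and 4 at 24 months (old 1 to 4). No treatment or genetic change is given for any animal, and each library is poly(A) RNA of whole liver from a separate rat. In whole tissue, a larger number of cells of a type and more RNA per cell cannot be told apart.

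Natural killer cells are innate lymphocytes that are abundant in the liver sinusoids and kill infected or altered cells on contact. They release granules in which perforin opens the target membrane and granzymes, a family of serine proteases, cleave proteins inside the target. Cytotoxic CD8 T cells use the same granules, so most of these genes mark both lineages. Their growth and survival depend on interleukin 15, which signals through the receptor chain encoded by Il2rb. Their development depends on the T-box transcription factors T-bet and eomesodermin, encoded by Tbx21 and Eomes.

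Because T-box and RUNX proteins are known regulators of cytotoxic genes, the promoters of effector members are shown first. RefSeq windows of the GRCr8 assembly, from 250 bases before to 50 bases after the annotated gene start, were matched for 6 of the 10 members (Eomes, Gzmk, Gzmm, Nkg7, Prf1 and Tbx21). Both strands were searched for the T-box letters GGTGTGA, the RUNX letters TGTGGT and the STAT letters TTCNNNGAA. The first 2 motifs share no letters in any window shown. The T-box letters were in the windows of Gzmk, at position -118 from the start, and Gzmm, at -82, and in 3.83% of all 33469 windows. The RUNX letters were in 5 of 6 member windows and in 17.3% of all windows, and the STAT letters were in 1 of 6, that of Nkg7, against 8.87%. The 4 sequences printed here are those of the granule genes. They lie at chr7:10667207-10667506 on the minus strand (Gzmm), chr2:46581966-46582265 on the minus strand (Gzmk), chr20:29788790-29789089 on the plus strand (Prf1) and chr1:102981247-102981546 on the plus strand (Nkg7). Each runs 5′ to 3′ along its gene, and capitals mark T-box and RUNX letters on either strand.
Gzmm: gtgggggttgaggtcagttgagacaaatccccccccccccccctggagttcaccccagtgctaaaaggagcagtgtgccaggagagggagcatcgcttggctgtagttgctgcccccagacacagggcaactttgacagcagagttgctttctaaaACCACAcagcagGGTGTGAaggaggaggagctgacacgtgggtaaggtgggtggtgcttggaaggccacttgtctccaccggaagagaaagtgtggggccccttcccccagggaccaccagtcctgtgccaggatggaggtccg
Gzmk: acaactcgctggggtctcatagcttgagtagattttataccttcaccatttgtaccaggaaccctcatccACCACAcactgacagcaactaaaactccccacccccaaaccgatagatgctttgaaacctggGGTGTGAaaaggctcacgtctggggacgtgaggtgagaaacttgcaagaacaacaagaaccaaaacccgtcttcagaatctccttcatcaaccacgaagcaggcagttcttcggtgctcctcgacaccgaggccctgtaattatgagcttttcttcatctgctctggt
Prf1: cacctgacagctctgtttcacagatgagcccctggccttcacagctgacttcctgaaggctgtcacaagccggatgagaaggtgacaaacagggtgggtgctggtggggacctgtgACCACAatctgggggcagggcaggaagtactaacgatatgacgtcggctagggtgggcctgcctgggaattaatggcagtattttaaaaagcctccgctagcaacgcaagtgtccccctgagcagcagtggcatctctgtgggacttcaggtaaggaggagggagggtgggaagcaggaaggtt
Nkg7: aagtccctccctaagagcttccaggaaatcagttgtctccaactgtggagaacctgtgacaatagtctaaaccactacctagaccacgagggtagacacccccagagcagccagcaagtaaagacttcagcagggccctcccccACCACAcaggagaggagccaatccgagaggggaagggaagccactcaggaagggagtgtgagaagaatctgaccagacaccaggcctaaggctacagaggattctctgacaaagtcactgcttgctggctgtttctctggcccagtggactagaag
A match is a run of letters and does not show that a factor binds there.

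The libraries held 18942191 to 25215805 reads in young and 18586798 to 32882704 in old livers. Levels are given in CPM, read counts made comparable between libraries with TMM factors, and 3 reads correspond to 0.106 to 0.173 CPM depending on the library. Every count of old 1 was even. Heart muscle markers, a list of 12 genes, summed to 93.4 to 119 CPM in young 2 to 5, against 7.43 CPM in young 1 and 0.288 to 3.69 CPM in the old libraries. Young 1 was therefore also compared alone with the 4 old libraries. Old 3 stood apart for myeloid transcripts, with 229.5 CPM over 12 neutrophil and monocyte markers against 10.9 to 24.5 CPM elsewhere. Markers of liver itself were high, with 8 hepatocyte genes summing to 130244 to 135430 CPM at 6 months and to 160135 to 250220 CPM at 24 months. Most of that sum was Alb, the albumin gene. By edgeR's quasi-likelihood test over 12778 genes, 84 rose and 44 fell with age at an adjusted p under 0.05, together 1.00% of those tested. With library totals as the only scaling the split was 72 higher and 208 lower.

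Of the 10 genes, Ccl5 and Il2rb rose with age and the other 8 did not pass the test. By edgeR 0 members were lower, also at an unadjusted p under 0.05, and by DESeq2 and limma-voom likewise 0. The share of all tested genes called higher was 0.657%. Ncr1 was outside the low-count filter and the remaining 9 genes passed it. Only Ccl5, Nkg7, Prf1 and Il2rb reached the filter's cutoff of 0.429 CPM in all 9 libraries, so the count of passing genes was itself shaped by the old livers. An unadjusted p under 0.05 with a higher value in old livers was found for 8 members, against 8.94% of all genes tested. Without the filter, the median log2 fold change over all 10 was 1.36, and that of all genes was 0.02.

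Ccl5 encodes a chemokine that cytotoxic T and natural killer cells store and release to attract further leukocytes. It lay at 4.54, 3.82, 2.22, 3.16 and 3.03 CPM in young 1 to 5, and at 12.1, 8.74, 11.6 and 6.18 CPM in old 1 to 4. The lowest old library was above the highest young one. The rise was 2.87-fold (log2 1.52 ± 0.24 SE; edgeR adjusted p = 0.0261). In fits that left out 1 library the value ran from 1.39 to 1.68, and the call ended in 5 of 9 of them. Without young 1, old 2, old 3 or old 4 it was kept, with an adjusted p of 0.0460 without old 3. Against young 1 alone the log2 fold change was 1.10 (edgeR unadjusted p = 0.0444, adjusted p = 0.997).

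Il2rb encodes the signalling chain shared by the interleukin 2 and interleukin 15 receptors. Its level was 3.09, 3.30, 2.78, 2.09 and 2.67 CPM in young 1 to 5 and 6.42, 5.01, 6.00 and 4.61 CPM in old 1 to 4. The groups did not overlap, and old livers had the higher level by 0.98 ± 0.18 on the log2 scale (SE; edgeR adjusted p = 0.0372). Its fold change was the most even of the members when single libraries were left out, from 0.89 to 1.06, although the call ended in 7 of 9 fits and remained without old 2 and without old 4. Against young 1 alone it was 0.84 (edgeR unadjusted p = 0.0528, adjusted p = 0.997). In GRCr8 the span of Il2rb overlaps that of LOC120093823, and their reads could not be told apart in a library that does not mark strand.

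**Figure D1:**
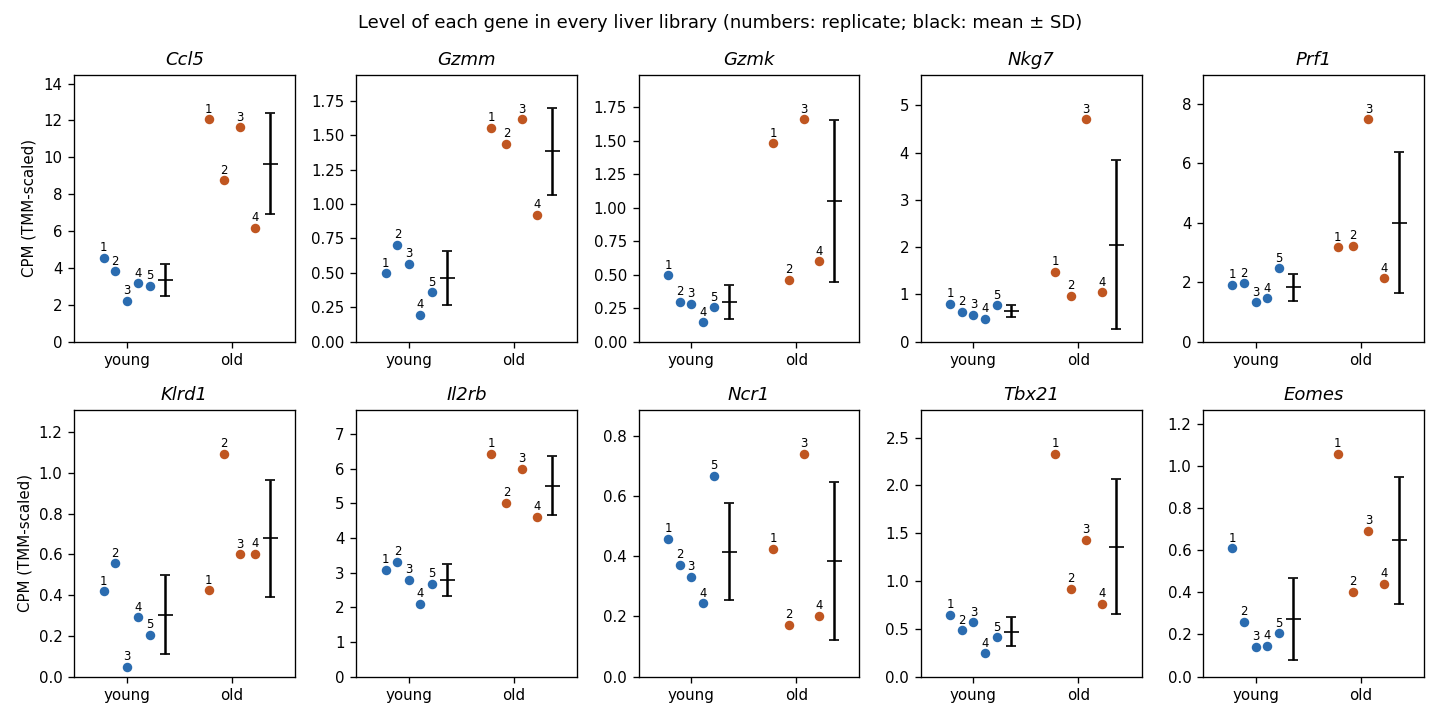
Each panel plots the TMM-scaled CPM of 1 gene in the 5 young (blue) and 4 old (orange) libraries, numbered by replicate, with the mean ± SD in black. Ccl5, Gzmm, Nkg7, Il2rb and Tbx21 have every old library above every young one, old 3 stands far above the rest for Nkg7 and Prf1, and the groups overlap for Ncr1.

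Among the granule genes, the levels were low and the old libraries differed from each other more than the young ones did for Gzmk, Nkg7 and Prf1. Gzmm encodes granzyme M, a protease that cleaves after methionine and leucine. It lay at 0.495, 0.705, 0.566, 0.194 and 0.359 CPM in young 1 to 5 and at 1.55, 1.44, 1.62 and 0.922 CPM in old 1 to 4, which is 4 to 19 reads against 23 to 44. The groups did not overlap, and the log2 fold change was 1.54 ± 0.35 (edgeR adjusted p = 0.0695).

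Gzmk encodes granzyme K, a trypsin-like granzyme. Its level was 0.495, 0.297, 0.283, 0.146 and 0.256 CPM in young 1 to 5, and 1.48, 0.460, 1.66 and 0.602 CPM in old 1 to 4. Old 1 and old 3 were high and old 2 lay inside the young range. The log2 fold change of 1.80 ± 0.47 was the highest of the 9 tested members, but it did not pass (edgeR adjusted p = 0.103), and young 4 held only 3 reads. Without old 3 it was 1.51, and against young 1 alone it was 1.09 (edgeR adjusted p = 0.167 and 0.997).

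Prf1 encodes perforin. It lay at 1.91, 1.97, 1.32, 1.46 and 2.46 CPM in young 1 to 5, and at 3.17, 3.22, 7.48 and 2.13 CPM in old 1 to 4. Old 4 overlapped the young range and old 3 stood highest, at 162 reads. The log2 fold change was 1.13 ± 0.35 (edgeR adjusted p = 0.163), and 0.64 without old 3 (adjusted p = 0.252).

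Nkg7 encodes a granule membrane protein needed in mice for the release of cytotoxic granules. It lay at 0.800, 0.631, 0.566, 0.486 and 0.769 CPM in young 1 to 5 and at 1.48, 0.978, 4.71 and 1.04 CPM in old 1 to 4. The groups did not overlap, and old 3, with 102 reads, was far above the other old libraries. The log2 fold change of 1.65 ± 0.48 did not pass (edgeR adjusted p = 0.137) and was 0.85 without old 3 (adjusted p = 0.183).

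Of the receptor genes, Klrd1 encodes CD94, which pairs with NKG2 chains to read non-classical class I molecules. Its level was 0.419, 0.557, 0.0472, 0.292 and 0.205 CPM in young 1 to 5, and 0.423, 1.09, 0.600 and 0.602 CPM in old 1 to 4. The groups overlapped at old 1, and young 3 held 1 read (log2 fold change 1.08 ± 0.51, edgeR adjusted p = 0.343).

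Ncr1 encodes NKp46, an activating receptor and the member most restricted to natural killer cells and related innate lymphocytes. It lay at 0.457, 0.371, 0.330, 0.243 and 0.667 CPM in young 1 to 5, and at 0.423, 0.173, 0.738 and 0.201 CPM in old 1 to 4. The lowest and the highest value of all 9 were both in old livers. Its mean was 0.414 ± 0.161 CPM in 5 young and 0.384 ± 0.262 CPM in 4 old animals (SD). In the fit without a low-count filter its change on the log2 scale was -0.11 ± 0.49 (SE; edgeR adjusted p = 0.939). The gene had 83 reads in all, so a difference of moderate size was not detectable at this depth.

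**Figure D2:**
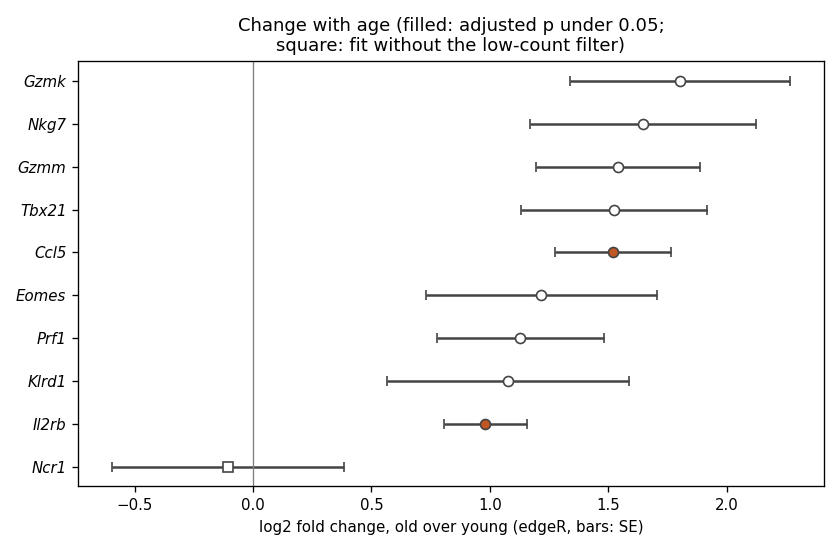
The log2 fold change of old over young from edgeR is plotted for each gene with its SE, filled where the adjusted p was under 0.05. Ncr1, drawn as a square from the fit without a low-count filter, lies at -0.11, and the other 9 genes lie between 0.98 (Il2rb) and 1.80 (Gzmk).

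Both transcription factor genes had higher mean levels in old livers, and neither passed the test. Tbx21, which encodes T-bet, lay at 0.648, 0.482, 0.566, 0.243 and 0.410 CPM in young 1 to 5 and at 2.33, 0.920, 1.43 and 0.762 CPM in old 1 to 4. Its groups did not overlap (log2 fold change 1.52 ± 0.39, edgeR adjusted p = 0.103), with old 1 the highest and a value of 1.12 without it. Eomes lay at 0.610, 0.260, 0.142, 0.146 and 0.205 CPM in young 1 to 5 and at 1.06, 0.403, 0.692 and 0.441 CPM in old 1 to 4. Young 1 was above old 2 and old 4, and the log2 fold change was 1.22 ± 0.49 (edgeR adjusted p = 0.266). Against young 1 alone that of Eomes was 0.11 (adjusted p = 0.997).

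In all, 5 of the 10 genes (Ccl5, Gzmm, Nkg7, Il2rb and Tbx21) had every old library above every young one, against 3.40% of all genes tested. DESeq2 called 6 members higher (Ccl5, Gzmm, Gzmk, Nkg7, Il2rb and Tbx21), with 3.03% of all genes called higher by that tool. Prf1 was just outside its threshold (DESeq2 adjusted p = 0.0529). Over 20 alternative settings, which share most libraries, the 9 tested members gave 168 log2 fold changes, all positive, down to 0.11 for Eomes. A member below the filter in a setting gave no value there. Ncr1 was not counted, and its value was -0.11 in the fit without a filter. All 10 had a value without a filter, without old 2, without old 4 and against young 1 alone, with 9, 10, 10 and 9 positive. Gzmk and Eomes reached the filter's cutoff in only 1 young library each, and in 4 and 3 old ones. The count of positive values is therefore not separate support.

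**Figure D3:**
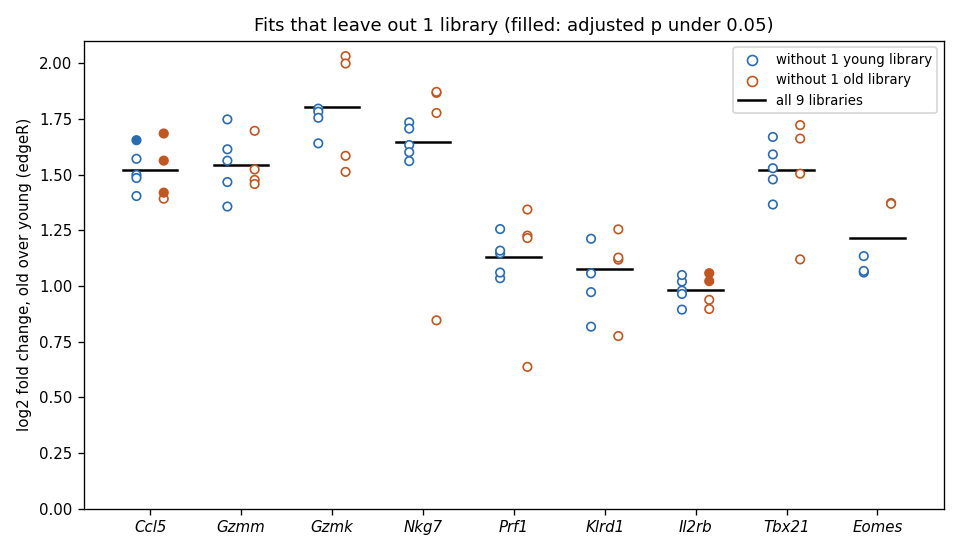
Points show the edgeR log2 fold change of old over young in fits that leave out 1 young (blue) or 1 old (orange) library, filled where the adjusted p was under 0.05, and black lines show the fit to all 9. Nkg7 and Prf1 drop to 0.85 and 0.64 without old 3, while Il2rb stays between 0.89 and 1.06.

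The levels of the members were next set against Ncr1 within each library, a ratio that does not depend on library scaling. Read for read, Ccl5 was 4.54 to 13.0 times Ncr1 in young and 15.8 to 50.7 times in old livers. Tbx21 was 0.615 to 1.71 times Ncr1 in young and 1.94 to 5.50 times in old livers. Gzmk was 0.385 to 1.08 times Ncr1 in young and 2.25 to 3.50 times in old livers. For 6 of the 9 other members (Ccl5, Gzmm, Gzmk, Nkg7, Prf1 and Tbx21) the ratio to Ncr1 was higher in every old than in every young library, against 0.994% of all genes tested. Those of Klrd1, Il2rb and Eomes overlapped. Ccl5, Gzmm, Nkg7 and Tbx21 had groups that did not overlap before the ratio was taken, so the 2 counts are not separate. Ncr1 was also the only member with a lower mean in old livers (0.414 CPM in young, 0.384 CPM in old). Ratios of the other members to it therefore tend to be higher in old livers, and their count is not separate support. Ncr1 had only 3 reads in old 2 and 5 in both young 4 and old 4, so these ratios are the least certain.

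Against Ptprc, the CD45 gene of all white blood cells, 0 of the 9 members tested had a ratio higher in every old than in every young library. The share of all genes with such a ratio was 0.219%, so the count does not set the members apart. Ptprc lay at 5.25 to 10.2 CPM in young livers, at 8.96, 9.90 and 9.51 CPM in old 1, old 2 and old 4, and at 27.0 CPM in old 3 (edgeR adjusted p = 0.306). The 10 members summed to 1.33, 1.66, 0.862, 1.61 and 1.82 times Ptprc in young 1 to 5 and to 3.39, 2.27, 1.36 and 1.84 times in old 1 to 4. Old 3 was inside the young range, and the remaining old libraries were above it, old 4 by a small margin.

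Other genes of the cytotoxic pathway were examined as 5 lists. Of 56 tested genes, 0 passed edgeR's test in either direction, beside 1.00% of all genes tested. At an unadjusted p under 0.05, 15 of the 56 were higher and 1 was lower, beside 1142 higher and 889 lower of all 12778 genes tested. DESeq2 called 4 higher (Gzma, Irf1, Jak3 and Nfil3), with 3.03% of all genes called higher by that tool, and 0 lower. Limma-voom called 0. Of 19 further granule genes, 12 were tested with a median log2 fold change of 0.33, beside 0.01 for all genes, and 3 had an unadjusted p under 0.05. Gzma, for granzyme A, a main granzyme of natural killer cells, lay at 0.802 to 1.56 CPM at 6 months and 1.44 to 3.92 CPM at 24 months (log2 fold change 1.27 ± 0.33, edgeR adjusted p = 0.101). Gzmb, for granzyme B, was near the limit of counting, at 29 reads in all libraries together. The granule-fusion gene Unc13d had 1.29 ± 0.11 CPM in 5 young and 2.45 ± 1.36 CPM in 4 old animals (edgeR adjusted p = 0.202). The papain-family protease gene Ctsw had 0.360 ± 0.142 and 0.798 ± 0.475 CPM (edgeR adjusted p = 0.262).

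Of 34 further receptor and adaptor genes, 12 were tested with a median of 0.75. With 8.94% of all genes tested higher at an unadjusted p under 0.05, 4 of these 12 passed that cut, all higher in old livers. They were Cd226, an activating receptor gene (log2 fold change 1.53 ± 0.48, edgeR adjusted p = 0.158), the adhesion gene Cd2 (1.18 ± 0.41, adjusted p = 0.202) and the adaptor genes Fcer1g and Tyrobp, which myeloid cells also express (0.78 ± 0.33 and 0.79 ± 0.34, adjusted p = 0.283 and 0.290). Klrk1, for the activating receptor NKG2D, lay at 0.826 to 2.25 CPM at 6 months and 1.76 to 4.29 CPM at 24 months (0.76 ± 0.36, edgeR adjusted p = 0.342). The listed lectin-like receptor genes of the Klra, Klrb and Klrc families were all below the filter, and reads could be split among their close copies.

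In the cytokine list, 14 of 22 genes were tested, with a median of 0.53. The kinase gene Jak3, which acts below the interleukin 15 receptor, had 11.7 ± 1.46 CPM at 6 months and 17.2 ± 2.85 CPM at 24 months (log2 fold change 0.55 ± 0.14, edgeR adjusted p = 0.0964). Irf1, an interferon-induced transcription factor gene needed in mice for interleukin 15 expression, had 15.8 ± 2.89 and 23.6 ± 3.61 CPM (0.58 ± 0.15, adjusted p = 0.110). Both had groups that did not overlap. Stat4, which transmits interleukin 12 signals, had 0.300 ± 0.107 and 0.666 ± 0.177 CPM (adjusted p = 0.152). Il15 itself lay at 0.778 to 2.04 CPM at 6 months and 1.38 to 4.09 CPM at 24 months (edgeR adjusted p = 0.309). Ifng, the main cytokine product of these cells, had 2 reads in all 9 libraries, 1 in each age group.

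Of 11 transcription factor genes in the table, 7 were tested, with a median of 0.13. Nfil3, a factor needed in mice for natural killer cell development and also active in hepatocytes, had 31.7 ± 10.4 CPM at 6 months and 58.1 ± 12.1 CPM at 24 months (0.88 ± 0.26, edgeR adjusted p = 0.147). Id2 had 59.5 ± 15.8 and 36.6 ± 9.52 CPM (-0.70 ± 0.22, adjusted p = 0.169). Ets1, a factor of many lymphocyte types, had 49.7 ± 2.31 and 43.4 ± 7.10 CPM (-0.20 ± 0.11, adjusted p = 0.417). Runx3, a RUNX factor of cytotoxic lymphocytes, had 1.07 ± 0.168 and 1.46 ± 0.854 CPM (adjusted p = 0.559).

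Of 18 chemokine and receptor genes, 11 were tested, with a median of 0.19. Ccl4, another chemokine of activated cytotoxic cells, lay at 0.243 to 0.779 CPM at 6 months and 0.917 to 1.04 CPM at 24 months (log2 fold change 1.12 ± 0.33, edgeR adjusted p = 0.142). Cxcl11, a ligand of Cxcr3, had 9.64 ± 1.23 and 16.5 ± 6.93 CPM (adjusted p = 0.176), and Cxcr3 itself had 0.568 ± 0.179 and 0.937 ± 0.464 CPM (adjusted p = 0.363). The other listed ligands, Cxcl9 and Cxcl10, had lower means in old livers. Cxcl9 had 10.4 ± 7.87 and 7.43 ± 1.48 CPM (edgeR adjusted p = 0.655), and Cxcl10 had 3.24 ± 2.06 and 2.20 ± 0.355 CPM (adjusted p = 0.521).

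Markers of other blood cells were set beside the cytotoxic genes. Of 22 T cell markers, 12 were tested and 0 passed by edgeR. At an unadjusted p under 0.05, 7 were higher, against 8.94% of all genes tested. DESeq2 called 2 higher, with 3.03% of all genes called higher by that tool, and limma-voom called 0. All 12 T cell markers tested had a positive log2 fold change, with a median of 0.82. Every old library was above every young one for 4 of them (Cd3e, Cd247, Lat and Zap70), against 3.40% of all genes tested. The summed level of the list was 21.3 to 36.3 CPM in young livers and 33.1, 42.6, 90.7 and 38.1 CPM in old 1 to 4. Much of that sum was Cd4, which rat macrophages also express, at 11.9 to 25.6 CPM in young livers and 8.61, 26.1, 55.3 and 25.4 CPM in old 1 to 4. Cd3e, a chain of the T cell receptor complex, lay at 0.229 to 0.359 CPM in young livers and at 1.62, 0.805, 16.5 and 0.521 CPM in old 1 to 4, and Cd8a lay at 0.972 to 1.78 and 1.36 to 4.02 CPM. Other listed chains of that complex did not reach such a level, with at most 0.353 CPM for Cd3d, 1.66 for Cd3g and 1.06 for Cd247 in any old library. No T cell marker was at 0 in every library. The 8 markers of all leukocytes summed to 40.9 to 72.7 CPM in young livers and to 64.3, 78.9, 184 and 69.7 CPM in old 1 to 4. Cd79b, a B cell receptor gene, rose from a range of 0.0472 to 0.229 CPM at 6 months to 0.564 to 1.02 CPM at 24 months (edgeR adjusted p = 0.0437), a call that ended in 8 of 9 fits without 1 library (highest adjusted p = 0.107, without young 4). Marco, a macrophage receptor gene, lay at 4.81 to 17.1 and 1.98 to 95.7 CPM (edgeR adjusted p = 0.249).

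The erythroid and neutrophil markers also included genes with every old library above every young one, as did 3.40% of all genes tested. The erythroid list summed to 37.8 to 183 CPM in young livers and to 638, 240.0, 1105 and 628 CPM in old 1 to 4. Of 4 tested erythroid genes, 3 rose, against 0.657% of all genes tested. They were Alas2, for the first enzyme of haem synthesis in red cells (log2 fold change 2.85 ± 0.51, edgeR adjusted p = 0.0404), and the beta-globin genes Hbb (2.71 ± 0.52, adjusted p = 0.0498) and Hbb-b1 (4.45 ± 0.60, adjusted p = 0.0146), near-identical copies between which reads could be split. These calls ended in 7, 7 and 2 of 9 fits without 1 library (highest adjusted p = 0.111, 0.122 and 0.0607). Of 12 neutrophil and monocyte markers, 7 were tested and 0 passed by edgeR. At an unadjusted p under 0.05, 5 were higher, against 8.94% of all genes tested. DESeq2 called 1 higher (Chi3l1), with 3.03% of all genes called higher by that tool, and limma-voom called 0. S100a8 and S100a9, for the calprotectin subunits, lay at 0.0762 to 0.334 and 0.189 to 0.381 CPM at 6 months and at 0.460 to 43.4 and 0.518 to 76.1 CPM at 24 months (edgeR adjusted p = 0.105 and 0.103). Among hepatocyte genes, Alb, for albumin, rose from a range of 102217 to 110804 CPM at 6 months to 132563 to 220907 CPM at 24 months (0.80 ± 0.15, edgeR adjusted p = 0.0423), a call that ended in 8 of 9 fits without 1 library (highest adjusted p = 0.116, without young 2). Of the other hepatocyte genes, 0 passed by edgeR or limma-voom, and Tat, for tyrosine aminotransferase, was called lower by DESeq2 alone (edgeR log2 fold change -0.92 ± 0.27, adjusted p = 0.134).

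The 10 cytotoxic genes summed to 8.46 to 13.5 CPM in young livers and to 30.4, 22.4, 36.6 and 17.5 CPM in old 1 to 4. Most of that sum was Ccl5, Il2rb and Prf1, with means of 3.35, 2.79 and 1.82 CPM in young and 9.65, 5.51 and 4.00 CPM in old livers. The sum and its ratio to Ptprc therefore mostly reflect these 3 genes. The part of other cell types, or of the heart muscle transcripts of young 2 to 5, in the results was not tested.

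**Figure D4:**
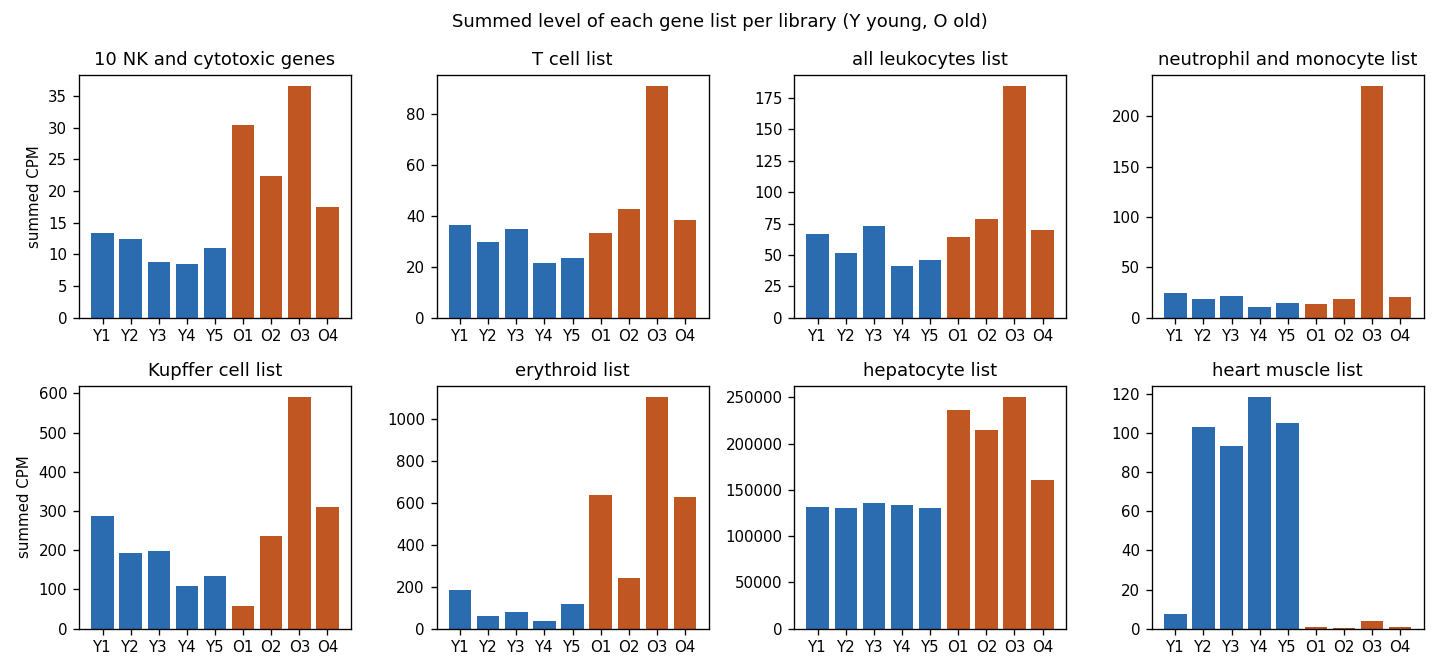
Bars give the summed CPM of 8 gene lists in each young (blue) and old (orange) library. The cytotoxic, erythroid and hepatocyte sums are above the young range in all 4 old livers. These sums and the T cell, leukocyte, myeloid and Kupffer cell sums are all highest in old 3. The heart muscle sum is high in young 2 to 5. Most of the hepatocyte sum is Alb.

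The 5 other genes with the most similar profile were sought among 11597 genes whose mean level reached 1 CPM. Likeness was the mean absolute difference, over 9 libraries, between the centred log2 CPM of a gene and the mean profile of the 9 tested members. It was 0.22 for Hrg, a plasma glycoprotein gene, 0.22 for the complement receptor gene C5ar2, 0.23 for Ndufaf6, a complex I assembly factor gene, 0.23 for Sp140, a nuclear body gene of leukocytes, and 0.23 for Afp, which encodes alpha-fetoprotein. Among the members themselves the difference was 0.19 for both Ccl5 and Il2rb, 0.25 for Eomes and 0.26 for Tbx21. It was 0.28 to 0.31 for Prf1, Gzmk, Gzmm and Nkg7, 0.59 for Klrd1, and 0.70 for Ncr1, which was not part of the profile. Only Ccl5 and Il2rb were thus nearer the profile than the 5 other genes. The 2 sides are not alike, because the 9 tested members are themselves part of the profile. The 5 other genes were the nearest of 11597 and had to reach a mean of 1 CPM, which only 4 members did. The profile was itself higher in every old than in every young library. Genes chosen for likeness to it therefore tend to be higher in old livers, and their test results are not separate support. Sp140 lay at 3.30 to 4.27 CPM at 6 months and 8.05 to 10.2 CPM at 24 months (log2 fold change 1.21 ± 0.13, edgeR adjusted p = 0.00670). Hrg (edgeR adjusted p = 0.0332) and Afp (0.0337) also rose, the former from 707 ± 83.4 to 1313 ± 269 CPM (SD, n = 5 and 4) and the latter from a range of 10.6 to 13.9 CPM to one of 16.7 to 31.7 CPM, while C5ar2 and Ndufaf6 did not pass (0.122 each). In fits without 1 library, the call of Sp140 ended in 0 of 9, that of Hrg in 5 and that of Afp in 6 (highest adjusted p = 0.0254, 0.0972 and 0.0977).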

How the data were processed

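Liver poly(A) RNA of 9 male rats was sequenced from TruSeq RNA libraries, per the labels' protocols. The table deposited by the authors holds raw, unnormalized read counts of 23479 gene symbols. Reads were aligned with BWA, per the submitters' processing notes; its version, the genome build, the annotation and the counting tool are not given in the sources used here. Symbols are spelled as in RefSeq for GRCr8, which matched 16431 of them.

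Genes were kept with edgeR's filterByExpr (minimum count 10, minimum total 15), which left 12778 of 18071 with any count. Libraries were scaled with TMM. The ages were compared (old over young) by edgeR's robust quasi-likelihood F test, two-sided, over all 9 libraries. Benjamini-Hochberg adjusted p-values cover all genes tested, with 0.05 as the threshold. SE is the absolute log2 fold change divided by the square root of F. Profiles used log2 CPM with a prior count of 2. No set test was run. The floor of 3 reads reflects counting error alone, because reads were not tied to single molecules by identifiers. The fit was tested on simulated counts.

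Named genes were the 10 members, all genes of the pathway lists past the threshold, the 3 of each list with the smallest p, 10 fixed genes and the 5 nearest profiles; further genes were chosen after their values were seen. A gene of the lists is not reported here. The members, lists and alternatives were chosen with earlier results of these data known. Alternatives were other scalings and filters, DESeq2, limma-voom, a replicate block, old 1 halved, and fits without single or several libraries. The software was edgeR 4.0.16, DESeq2 1.42.0 and limma 3.58.1 in R 4.3.3, and matplotlib 3.10.9.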

Additional observations from a re-analysis of the deposited data

Results flagged for a closer look

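In 50 sets of values (25 genes in 2 age groups), 8 had 1 library far from the others of its group by Dixon's test, which chance flags in about 1 of 20 sets. Among the members these were Nkg7 in old 3, at 4.71 CPM against at most 1.48 CPM in the other old libraries, and Eomes in young 1, at 0.610 CPM against at most 0.260 CPM in the other young ones.

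Old 3 was also far from its group for Ptprc, at 27.0 CPM against at most 9.90 CPM, and for Cd3e, at 16.5 CPM against at most 1.62 CPM. Il15 was low in young 4, at 0.778 CPM against at least 1.70 CPM. Gzmb in young 2, at 0.186 CPM, and Ifng in young 3, at 0.0472 CPM, and in old 2, at 0.0575 CPM, rest on few reads, which for Ifng was 1 read each.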

How the results depend on the processing

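Scaling by median ratios or upper quartiles, both other filters and halving old 1 kept 2 members higher. With library totals only, under which the typical gene (median over all tested) shifted to -0.17 on the log2 scale, 2 members were higher and 208 genes were lower. DESeq2 called 386 genes higher and 269 lower, with 6 members higher. Limma-voom called 41 and 27. No pairing of the samples by replicate number is labelled. The correlation of deviations was -0.10, 0.10, 0.31 and -0.17 for numbers 1 to 4, and 2 of 4 correlated best with their own number. These values are too few to tell whether the numbers pair the samples. With a replicate block, 27 genes were higher, 16 lower and 0 members higher (edgeR adjusted p = 0.104 for Ccl5 and 0.141 for Il2rb; 8 members at an unadjusted p under 0.05).

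Leaving out 1 library gave 20 to 115 genes higher, 10 to 86 lower and 0 to 2 members higher. No member passed without young 2, young 3, young 4, young 5 or old 1 (7, 7, 7, 7 and 8 members at an unadjusted p under 0.05 by edgeR), and only Ccl5 passed without young 1 or without old 3. Without old 3 and old 4, 26 genes were lower and 1 member, Ccl5, was higher. Young 1 alone against the old libraries gave 0 genes higher or lower and 0 members, with only Ccl5 of the members at an unadjusted p under 0.05; this fit takes the spread from the old livers alone. In every alternative run, 0 members were called lower. Most members had under 50 reads in most libraries, which limits what these libraries could detect.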
